A study of Mus musculus with 2 samples.

Results

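The lipoxygenases of the skin are described here gene by gene, together with Alox5ap, the accessory protein of Alox5. The members were chosen by symbol: Alox8, Alox12, Alox12b, Alox12e, Aloxe3, Alox15, Alox5 and Alox5ap, 8 of 31053 features in the count tables. The choice was made knowing that Alox8 differed between the libraries, so the values below describe these libraries and no test is given. Droplet single-cell RNA sequencing was applied to the whole back skin of 1 wild-type (WT) mouse and 1 Card14KI mouse, the latter with a genotype that is labelled Card14 KI +/+. Both mice were on the C57BL/6 background and 12 months old, and the knock-in models pityriasis rubra pilaris, an inflammatory disease with scaling skin. CARD14 is a scaffold protein of keratinocytes that feeds the NF-kB pathway. The 3′ counts do not read the altered allele, so the genotype labels could not be checked from these data.

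Lipoxygenases add oxygen to polyunsaturated fatty acids, which gives hydroperoxides that other enzymes turn into signalling lipids or into parts of the skin barrier. In the epidermis Alox12b and Aloxe3 act one after the other on the linoleate of acylceramides, a step needed to form the lipid envelope of the cornified cells, and loss of either gene causes ichthyosis. In leukocytes Alox5, with Alox5ap in the nuclear membrane, makes the precursor of the leukotrienes. Alox8 is the mouse counterpart of human ALOX15B and is known as the lipoxygenase that phorbol ester brings up in mouse skin. Alox12 is the platelet-type enzyme, Alox12e the epidermal enzyme of rodents and Alox15 the leukocyte-type enzyme.

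After removal of poor barcodes and likely doublets, 4161 WT and 2835 Card14KI cells remained, with a median of 7302 and 6920 UMIs (unique molecular identifiers, 1 for each captured RNA molecule). Cells were assigned to classes by marker genes, which left 212 WT and 105 Card14KI cells without a class. The keratinocytes, 645 and 774 cells, were divided by layer markers into basal (202 and 159), spinous (137 and 275), granular (45 and 72), upper follicle (94 and 71) and cycling cells (77 and 144). All 7 granular markers were detected, and Lce genes led the granular cells pooled over both libraries. The libraries shared 2 cell barcodes. Xist was detected in 88.9% of WT and 90.7% of Card14KI cells, and Y-linked genes had 2 and 0 UMIs in all. A level is given as CPM, the UMIs of a gene per 1000000 UMIs of all cells of a class in 1 library, with a 95% Poisson interval in brackets where it is first given. All intervals cover counting error only, since 1 mouse per genotype holds no spread between animals. Because 3′ capture differs between genes, a level is compared between cells and libraries and not between genes.

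On chromosome 11 of the GRCm38 assembly the members lie in 2 groups. The first holds Aloxe3 (chr11:69125896-69149115, plus strand), Alox12b (chr11:69156989-69169792, plus strand) and Alox8 (chr11:69183932-69197843, minus strand). Further along lie Alox12 (chr11:70241457-70255353), Alox12e (chr11:70315610-70322628) and Alox15 (chr11:70344152-70352031), all on the minus strand. Alox5 (chr6:116410077-116461178, minus strand) and Alox5ap (chr5:149264767-149288153, plus strand) lie elsewhere. None of the members shared a run of 50 bases with another member in the last 600 bases of its transcripts. Alox8 shared 61 of 1927 such runs with other genes, Aloxe3 25 of 2379 and Alox12 10 of 1102. These are counts of sequence over all transcripts of a gene, and the share of reads affected was not measured. Alox5ap was the only member with an overlapping gene in the tables, the antisense Gm19719.

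The promoters of 3 members are shown because their levels differed most (Alox8, Alox12e) or because the gene is the nearest neighbour of Alox8 and sits in the same cells (Alox12b). Each is the 250 bases before the RefSeq start in GRCm38.p6, 5′ to 3′ on the strand of the gene, at chr11:69197844-69198093 (minus), chr11:70322531-70322780 (minus) and chr11:69156822-69157071 (plus). Capitals mark a match to the NF-kB motif.
Alox8: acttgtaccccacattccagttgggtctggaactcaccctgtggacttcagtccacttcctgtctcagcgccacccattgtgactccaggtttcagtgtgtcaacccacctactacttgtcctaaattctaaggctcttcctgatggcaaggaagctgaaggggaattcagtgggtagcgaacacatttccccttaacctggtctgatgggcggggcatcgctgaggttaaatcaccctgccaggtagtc
Alox12e: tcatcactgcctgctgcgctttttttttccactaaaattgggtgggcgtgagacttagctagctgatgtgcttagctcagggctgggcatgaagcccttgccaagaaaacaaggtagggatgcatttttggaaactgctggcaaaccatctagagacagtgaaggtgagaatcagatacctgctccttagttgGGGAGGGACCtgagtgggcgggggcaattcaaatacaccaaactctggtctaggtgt
Alox12b: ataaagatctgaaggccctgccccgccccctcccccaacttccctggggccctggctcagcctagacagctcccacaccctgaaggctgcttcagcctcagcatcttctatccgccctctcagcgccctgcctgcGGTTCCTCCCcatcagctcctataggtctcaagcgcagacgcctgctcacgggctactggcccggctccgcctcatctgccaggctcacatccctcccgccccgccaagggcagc
The 6 motifs searched on both strands were NF-kB (GGGA and CC with any 4 bases between them), AP-1 (TGANTCA), STAT (TTCNNNGAA), C/EBP (TTGCNNAA), GRHL (AACCNGTT) and the TATA box (TATAAA). The NF-kB letters were in 17.6% of 32851 promoters of the same length, AP-1 in 6.75%, STAT in 7.02%, C/EBP in 9.56%, GRHL in 1.79% and TATA in 12.4%. The Alox8 window held none of the 6 motifs, which says only that these letters are not in these bases. The windows of Alox12e, Alox12b, Alox12 and Alox5 each held 1 NF-kB match and none of the other motifs. These matches start 57, 115, 153 and 53 bases before the RefSeq start. The Alox12e and Alox12b windows reach into the genes as placed above, and the Alox12e match lies inside the gene by those positions.

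**Figure D1:**
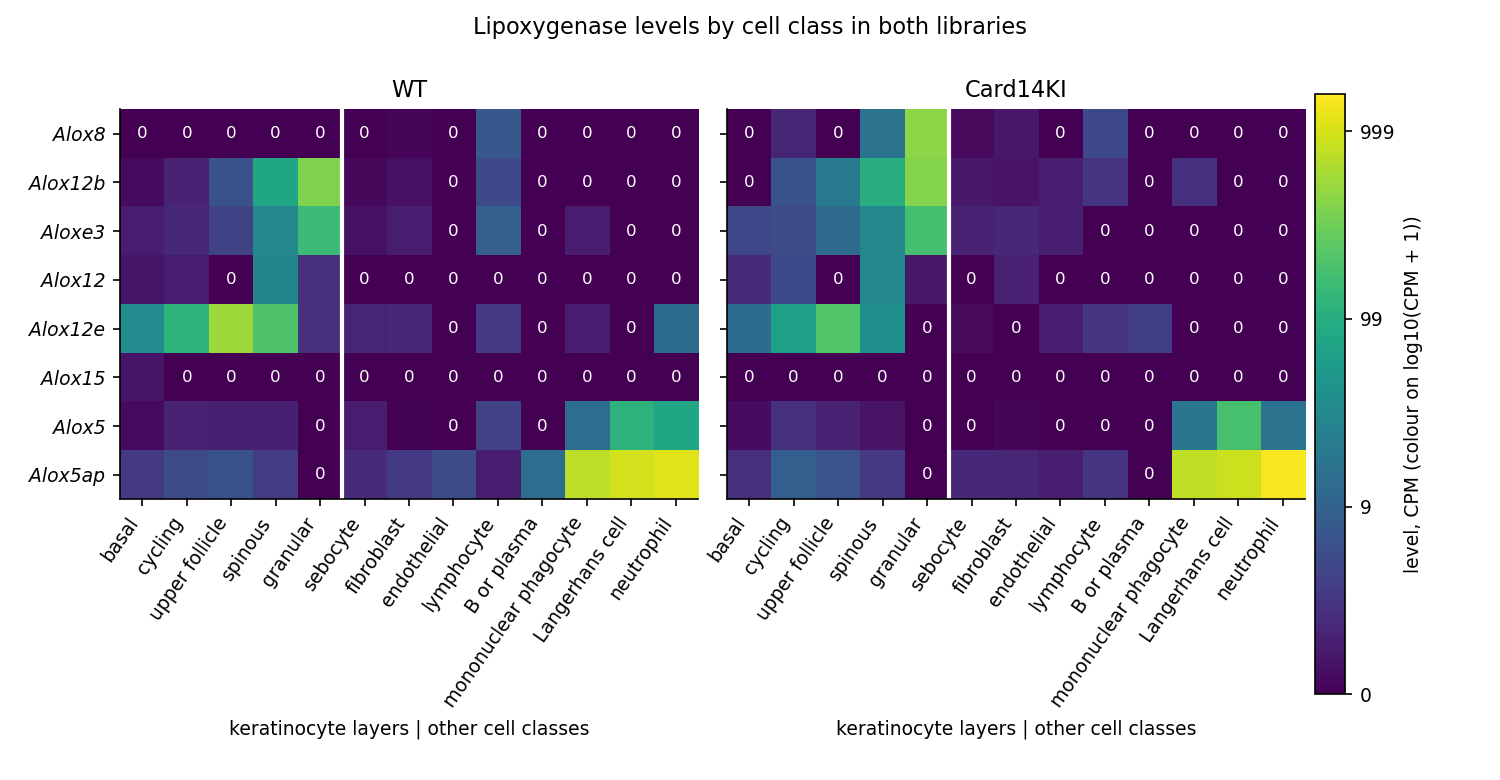
Level of each member in CPM, by colour on a log10 scale, in 5 keratinocyte layers and 8 other cell classes of the WT (left) and Card14KI (right) library; 0 marks a class without a UMI of the gene. Alox8 filled the granular column in Card14KI, at 442 CPM, and held 0 UMIs there in WT. By contrast, Alox12b in granular cells and Alox5ap in mononuclear phagocytes looked alike in both.

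The members were spread unevenly over the cell classes, and some shared their place, as the plot of levels by class shows. Granular cells held 54.8% of the WT and 43.3% of the Card14KI UMIs of Alox12b, and 46.1% and 48.2% of those of Aloxe3. Spinous cells held 92 of the 108 WT and 192 of the 246 Card14KI UMIs of Alox12. Alox12e UMIs were spread over upper follicle (28.0% and 20.4%), spinous (31.2% and 22.0%) and cycling cells (20.7% and 45.8%). Mononuclear phagocytes held 69.8% and 56.4% of the Alox5ap UMIs. Alox15 was close to absent, with 4 UMIs in 2 WT cells and 0 in Card14KI, which allows up to 0.106% of the Card14KI cells to hold a UMI.

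Alox8 was the member that stood furthest apart between the libraries. In granular cells, the last living layer of the epidermis, it had 0 UMIs in 45 WT cells and 725 UMIs in 38 of 72 Card14KI cells. The level was 442 CPM (410 to 475) in Card14KI, and the WT count of 0 allows up to 2.60 CPM, taking 3 UMIs as the floor, so Alox8 was at least 169.9-fold higher against that floor. The exact interval of the ratio, which also covers the Card14KI counting error, had a lower limit of 138. It ranked first of 6488 genes with 10 or more granular UMIs by the log2 ratio of CPM + 10, at 5.50 (5.08 to 5.60), a rank that was known when the gene was chosen. The positive cells were 52.8% (40.7% to 64.7%, exact Clopper-Pearson) of Card14KI granular cells, against 0.0938% of WT and 0.367% of Card14KI fibroblasts, a class that should lack the gene. Median depths were 24594 UMIs in Card14KI granular cells, 27486 in WT granular cells and 5593 in Card14KI fibroblasts. With every cell thinned to 2000 UMIs, 28.2% of 71 Card14KI granular cells and 0 of 44 WT cells still held an Alox8 UMI, a difference of 28.2 points (16.0 to 39.5), against 0.0794% of fibroblasts.

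**Figure D2:**
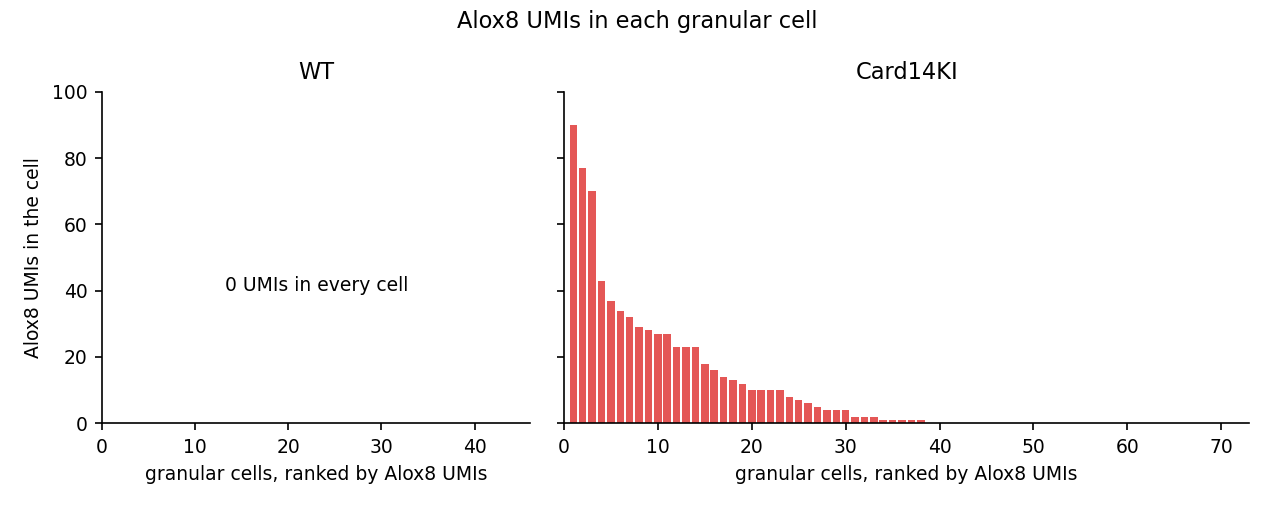
Alox8 UMIs in each granular cell, ranked within a library, for 45 WT cells (left, all at 0) and 72 Card14KI cells (right). In Card14KI 38 cells held at least 1 UMI, 23 held 10 or more, and the highest held 90.

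Within the Card14KI granular layer Alox8 was uneven from cell to cell, as the ranked cells show. The positive cells held a median of 11 UMIs, 8 cells held only 1 or 2, and the 3 highest held 237 of the 725 UMIs (32.7%). Without the highest cell the level was 392 CPM. Depth did not separate the cells: the median was 24367 UMIs in positive and 24604 in negative cells. Alox12b was detected in 35 of the 38 positive cells and in 30 of the 34 negative cells, at 406 and 404 CPM. Aloxe3 was detected in 37 and 30 of them, at 199 and 157 CPM. Alox12 and Alox12e had 0 UMIs in the 38 positive cells, 1 and 0 in the 34 negative cells, and 2 each in the WT granular cells, so their near absence was common to granular cells.

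By CPM, Hrnr (4747 and 5523) was the only granular marker not higher in Alox8-positive than in Alox8-negative Card14KI cells. Lor, the main protein of the cornified envelope, stood at 68153 and 51976 CPM, Flg at 5867 and 3926 and Flg2 at 10853 and 10420. Nccrp1 stood at 1283 and 1094 CPM, Cnfn at 4822 and 4180 and Cdsn at 1099 and 874. Of the spinous markers, only Krt1 (25.4 and 20.7 CPM) was not lower in positive cells. Krt10 stood at 1770 and 4060 CPM, Krt77 at 2488 and 4449, Dsg1a at 62.3 and 186 and Dsc1 at 145 and 264. Krtdap stood at 57642 and 61583 CPM and Sbsn at 16905 and 19082. The part of these markers in the Alox8 values was not tested. Lce1m, a late cornified envelope gene looked at after its values were seen, had a median of 184 UMIs per 10000 in positive cells, 6.45 in negative cells and 203 in WT granular cells. Among cells with 50 or more Lce1m UMIs per 10000, 25 of 37 Card14KI cells (67.6%) and 0 of 31 WT cells held Alox8. Among the others, 13 of 35 Card14KI cells (37.1%) and 0 of 14 WT cells did. The 0 of 14 allows up to 23.2%, and the Card14KI interval was 21.5% to 55.1%. The overlap of these separate intervals does not decide whether the shares differ, and the difference among cells with less Lce1m was not tested. These cells held 0 Alox8 UMIs in WT and 105 in Card14KI. The share of the Alox8 pattern that follows Lce1m was not tested.

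Below the granular layer Alox8 was nearly absent in both libraries. In spinous cells 99 UMIs lay in 5 of 275 Card14KI cells and 0 in 137 WT cells, but 90 of the 99 were in 1 cell, and without it the Card14KI level was 1.44 CPM in place of 15.7. Basal and upper follicle cells had 0 UMIs in both libraries, and cycling cells 0 and 9. In the whole WT library 14 cells held 30 Alox8 UMIs. Of these, 17 were in 2 cells with no class, whose UMIs were 37.3% and 48.7% hair keratin-associated genes, and 8 were in 7 lymphocytes (6.57 CPM). Lymphocytes of Card14KI held 2 UMIs (4.09 CPM), and with such counts the libraries could not be told apart in that class.

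The barrier pair, Alox12b and Aloxe3, did not follow Alox8. In granular cells Alox12b stood at 376 CPM (342 to 413) in WT and 405 CPM (375 to 437) in Card14KI, a ratio of 1.08 (0.952 to 1.22). Aloxe3 stood at 150.0 CPM (128 to 174) and 179 CPM (159 to 201), a log2 ratio of CPM + 10 of 0.24 (-0.02 to 0.50). Both intervals include no difference. Scaling the granular sums by TMM factors, which lowers the log2 ratios there by about 0.21, turned the Alox12b log2 ratio from 0.10 to -0.10. In spinous cells Alox12b had 252 UMIs in WT (74.9 CPM) and 632 in Card14KI, with a ratio of levels of 1.34 (1.15 to 1.55), and Aloxe3 stood at 31.2 and 30.4 CPM. The granular marker level of these cells was also higher in Card14KI, with a median of 0.119 against 0.0591, and its part in the Alox12b value was not tested. The Alox12b levels in spinous cells differed with the upper follicle keratins Krt79 and Krt17, a split made after its values were seen. Spinous cells with a UMI of either, 91 and 169 cells, stood at 85.9 and 121 CPM, and those without at 36.2 and 37.6 CPM. The split also sorts cells by depth. Median depths were 23789 and 22545 UMIs in cells with such a UMI and 14120 and 13518 in those without. The part of depth in these values was not tested.

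In the upper follicle, the funnel of the hair canal, Alox12b and Aloxe3 were low. Alox12b had 6 UMIs in WT (5.36 CPM) and 22 in Card14KI (20.7 CPM), and Aloxe3 had 4 and 13 UMIs (3.57 and 12.2 CPM). The ratio of Alox12b levels was 3.87 (1.52 to 11.7), which on the scale of CPM + 10 fell just under the limit used for calls. The Card14KI cells of this class also carried more of the spinous and granular markers. Their median scaled marker level was 0.496 against 0.388 for the spinous list and 0.0657 against 0.0146 for the granular list. The part of these markers in the Alox12b and Aloxe3 values was not tested.

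Alox12e was the member with lower levels in Card14KI. In spinous cells it stood at 201 CPM (186 to 216) in WT and 38.5 CPM (33.8 to 43.6) in Card14KI, a level 5.22-fold lower (ratio 0.192, 0.165 to 0.222). In upper follicle cells it stood at 542 CPM (500 to 587) and 213 CPM (186 to 242), 2.55-fold lower (2.18 to 2.98). Basal cells held 34.0 and 12.5 CPM, 2.72-fold lower (1.92 to 3.93), and cycling cells 115 and 65.8 CPM, 1.75-fold lower (1.53 to 1.99). By level, the direction was the same in all 4 layers where the gene was found, and granular cells held 2 and 0 UMIs. Without the cell with the most Alox12e UMIs in each library the basal values were 24.1 and 9.65 CPM, and the cycling values 85.6 and 55.3 CPM. In the separate grouping by Leiden clusters, 1 of 3 clusters with basal markers was made up of 250 WT cells but 14 Card14KI cells. These clusters also take in cells from outside the basal class, which had 202 and 159 cells. The median outer root sheath marker level of basal cells was 0.0808 in WT and 0.0351 in Card14KI. The part of this in the basal values was not tested.

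The share of cells with an Alox12e UMI differed in the same direction in spinous and upper follicle cells. It was 60.6% of WT and 27.3% of Card14KI spinous cells, at median depths of 19785 and 17105 UMIs, and 69.1% and 53.5% of upper follicle cells, at 9346 and 11032 UMIs. Fibroblasts, at 7218 and 5593 UMIs, held it in 0.797% and 0 of their cells. At 2000 UMIs per cell 28.3% of WT and 3.09% of Card14KI spinous cells held the gene, a difference of -25.3 points (-33.8 to -17.6), and 40 of 86 and 14 of 70 upper follicle cells held it, a difference of -26.5 points (-39.5 to -11.7). Among cycling cells at that depth, 9.72% in WT and 9.15% in Card14KI held it, and this difference (-0.567 points, -10.3 to 7.11) was not detectable. Unthinned, 36.1% of 72 WT and 38.9% of 131 Card14KI cycling cells with a Krt79 or Krt17 UMI held it, at 34306 and 52242 UMIs. Of basal cells with such a UMI, 10.6% of 170 WT and 14.3% of 112 Card14KI cells held it, at 9824 and 14034 UMIs. At 2000 UMIs per cell these basal shares were 5.33% and 1.87%, a difference of -3.46 points (-8.49 to 1.90). Of basal cells without such a UMI, 3 of 32 WT and 0 of 47 Card14KI cells held it.

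Hair follicle cells are unevenly spread between the libraries, with 158 inner root sheath cells in WT and 1 in Card14KI, and Krt6a, Gabrp and Lhx2 were among the leading genes of the basal cells pooled over both libraries. The Alox12e difference in spinous cells was therefore also taken apart by follicle keratins, after its value was seen. Spinous cells with no Krt79 or Krt17 UMI stood at 206 CPM in 46 WT cells and 55.8 CPM in 106 Card14KI cells, 3.69-fold lower (2.83 to 4.85). Those with such a UMI, which had the greater median depth given above, stood at 199 and 32.6 CPM, 6.10-fold lower (5.09 to 7.35). In cycling cells with no such UMI, 5 in WT and 13 in Card14KI, the values were 10.9 CPM (1 UMI) and 50.7 CPM (25 UMIs), too few cells to compare. The part of the hair follicle cells in the difference was not tested further.

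Alox12 differed little between the libraries in spinous cells, its main layer. It stood at 27.3 CPM (22.0 to 33.5) in WT and 30.4 CPM (26.2 to 35.0) in Card14KI spinous cells, a ratio of 1.11 (0.862 to 1.44), and was detected in 35.0% and 35.6% of them. Upper follicle cells held 0 UMIs in both libraries, which allows up to 2.68 and 2.82 CPM, and granular cells 2 and 1. In cycling cells 3 WT and 33 Card14KI UMIs gave 0.770 and 4.29 CPM. Card14KI cycling cells also had a higher spinous marker level, with a median of 0.395 against 0.0638, so cycling cells of the libraries were not of the same make-up. Alox12b and Aloxe3 were likewise higher there, at 1.03 and 5.46 CPM and at 1.28 and 4.42 CPM, and the part of the spinous markers in these values was not tested.

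**Figure D3:**
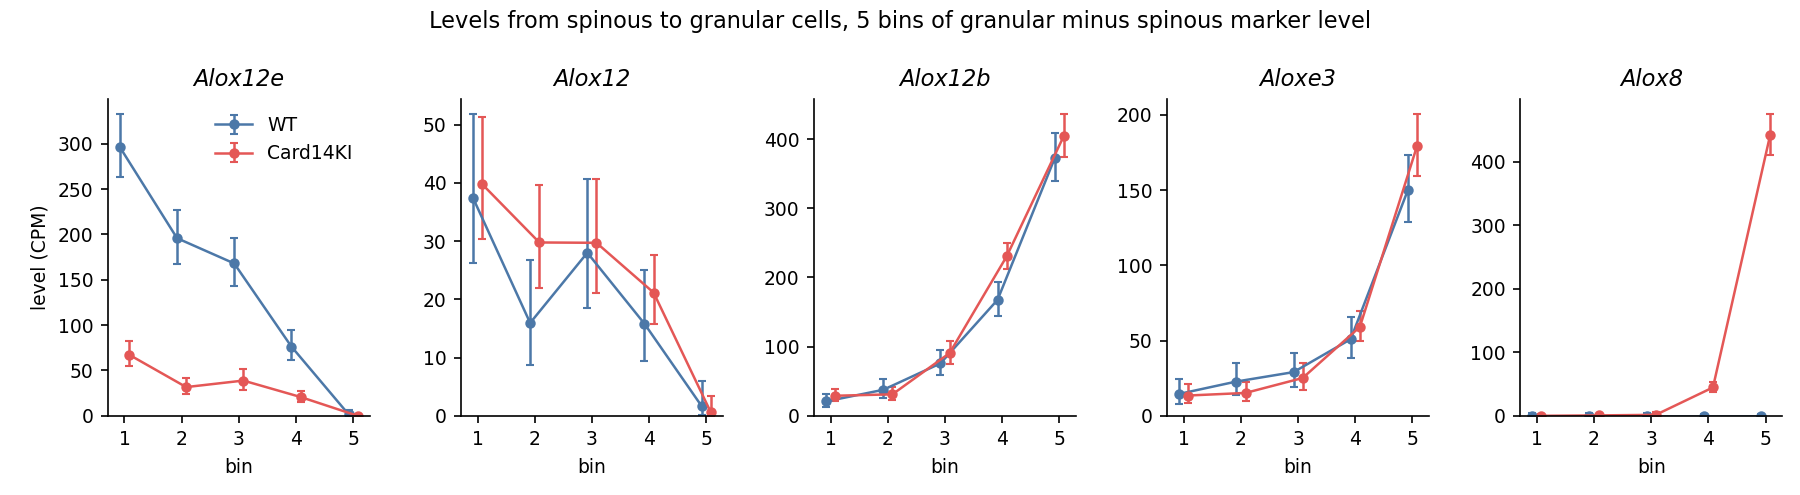
Level in CPM with 95% Poisson intervals of 5 members in 5 bins of keratinocytes, ordered by granular minus spinous marker level. The 212 WT (blue) and 376 Card14KI cells (red) are spinous and granular cells with some keratinocytes from outside these layers. From bin 1 to bin 5 Alox12e and Alox12 go down and Alox12b and Aloxe3 go up in both libraries, while Alox8 is at 442 CPM in bin 5 of Card14KI and at 0 in every WT bin.

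Keratinocytes were next ordered along differentiation by the difference of their granular and spinous marker levels and cut into 5 bins of 38 to 79 cells per library. The bins held 212 WT and 376 Card14KI cells. These were more than the spinous (137 and 275) and granular cells (45 and 72), so the bins also took in keratinocytes from outside these layers. The direction of the members along this axis was alike in both. Alox12e went from 296 CPM in the first bin of WT to 1.67 CPM in the last, and from 67.4 to 0 CPM in Card14KI. Alox12 went from 37.4 to 1.67 and from 39.8 to 0.610 CPM. Alox12b went the other way, from 20.8 to 373 CPM in WT and from 29.0 to 405 CPM in Card14KI, and Aloxe3 from 14.6 to 150.0 and from 13.5 to 179 CPM. In the fourth bin Alox12b stood at 168 and 231 CPM. Alox8 appeared at the end of the axis in Card14KI only, with 0, 0.633, 1.52, 44.7 and 442 CPM over the 5 bins, where 90 of the 112 UMIs of the fourth bin were in 1 cell. Alox12e was lower in Card14KI in each of the first 4 bins.

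By level, Alox5 and Alox5ap marked neutrophils, Langerhans cells and mononuclear phagocytes, and not the lymphoid classes. Alox5ap stood at 756 CPM (709 to 806) in 198 WT and 780 CPM (706 to 859) in 86 Card14KI mononuclear phagocytes, a ratio of 1.03 (0.916 to 1.16). In neutrophils it stood at 1152 and 1478 CPM, a ratio of 1.28 (0.953 to 1.73), from 91 and 96 UMIs. Langerhans cells, 24 and 12 in number, held 966 and 893 CPM. By contrast, keratinocytes held 3.28 and 4.20 CPM and fibroblasts 2.51 and 1.18 CPM. Lymphocytes held 0.822 and 2.05 CPM, and B or plasma cells 12.8 and 0 CPM. Neutrophils, Langerhans cells and mononuclear phagocytes, in that order in WT, thus stood well above every other class. The intervals of the libraries overlapped in mononuclear phagocytes and in neutrophils, and Langerhans cells were too few in Card14KI to compare.

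Alox5, the enzyme itself, was scarce, with 60 WT and 43 Card14KI UMIs in all cells. Langerhans cells held 18 and 14 of them (117 and 184 CPM). Keratinocytes, which are many and deep, held 16.7% of the WT and 41.9% of the Card14KI Alox5 UMIs. Cycling cells alone held 6.67% and 30.2%, at the low levels of 1.03 and 1.69 CPM. Mononuclear phagocytes stood at 13.4 CPM (7.83 to 21.5) and 17.1 CPM (7.81 to 32.4), a ratio of 1.27 (0.499 to 3.01). Neutrophils held 6 and 1 UMIs, a ratio of 0.203 (0.00441 to 1.67). At this depth no difference in Alox5 was detectable in mononuclear phagocytes or neutrophils, and Langerhans cells were not compared.

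**Figure D4:**
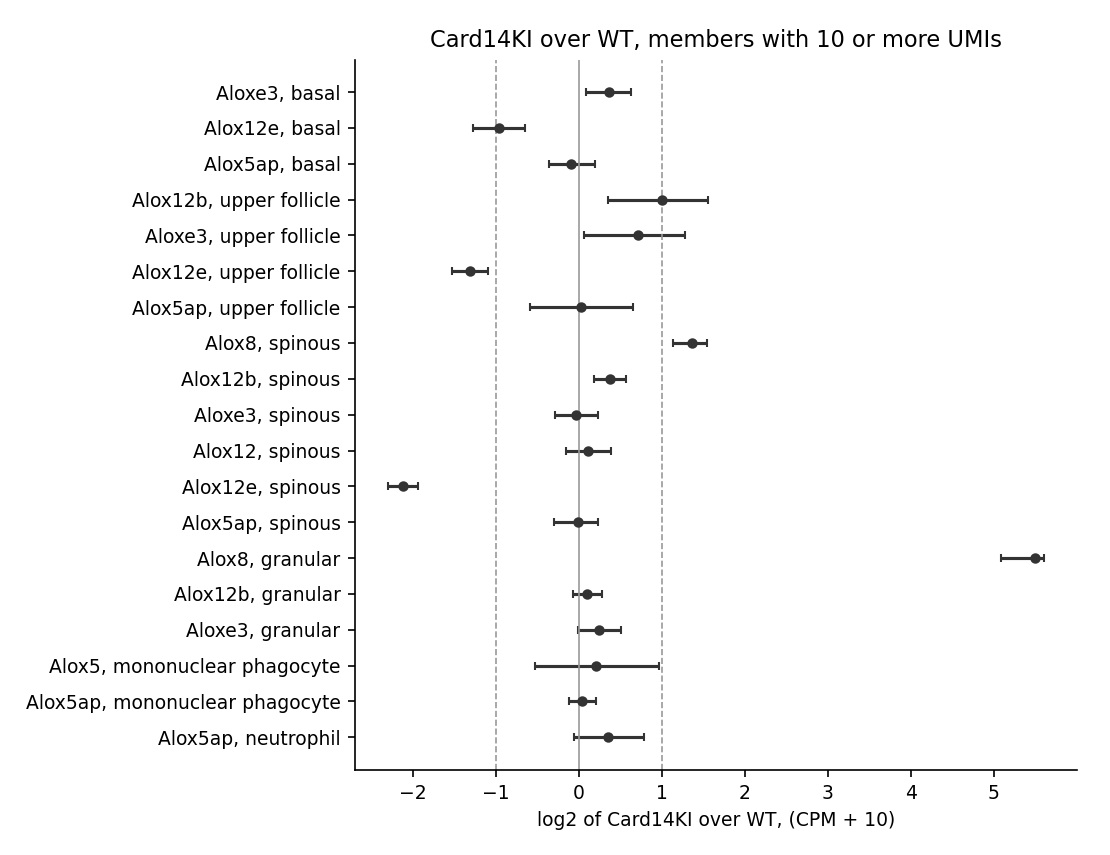
Log2 ratio of Card14KI over WT of CPM + 10, with 95% intervals for counting error, for each member with 10 or more UMIs over both libraries in 4 keratinocyte layers and 2 leukocyte classes; dashed lines mark a ratio of 2 in either direction. Alox8 in granular cells lies far to the right at 5.50, Alox12e lies left of the dashed line in spinous and upper follicle cells, and most other points lie between the lines.

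To set the members beside all other genes, a member was counted as past the limit where the ratio of CPM + 10 was 2 or more in either direction and both libraries together held 10 or more UMIs of it in the class. In granular cells 1 of 3 such members, Alox8, was higher and 0 lower, where 2.03% of 6488 genes were higher and 0.817% lower. The median log2 ratio was 0.24 for these 3 members and 0.18 for all genes. In spinous cells 1 of 6 was higher (Alox8, resting on 1 cell) and 1 lower (Alox12e), beside 0.334% of genes higher and 0.334% lower, with medians of 0.05 and 0.00. Alox12e was sixth lowest of 10778 genes there. In upper follicle cells 0 of 4 were higher, beside 0.855% of genes, and Alox12e was lower, beside 1.88%. Its log2 ratio of -1.31 came to -0.99 when cells near the border between classes were included, which is short of the limit.

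Over all keratinocytes 1 of 7 was higher (Alox8, at 0.0656 and 39.6 CPM), beside 0.277% of genes, and 1 lower (Alox12e, at 137 and 51.3 CPM), beside 1.44%. In basal cells 0 of 3 members were past the limit, where 0.933% of genes were higher and 3.06% lower. In cycling cells it was 0 of 6, beside 0.869% and 1.88%. In mononuclear phagocytes 0 of 2 (1.19% and 1.54% of genes) and in neutrophils 0 of 1 (5.29% and 12.7%) were past it. The same held for 1 member in sebocytes (0.259% and 0.313%), 2 in lymphocytes (0.897% and 2.87%) and 4 in fibroblasts (0.349% and 1.01%). Members below 10 UMIs in a class were left out of these counts. Alox8 passed that minimum in granular cells, spinous cells and all keratinocytes through Card14KI, with 0, 0 and 1 WT UMIs. It was chosen for this difference, so nothing is read from its part of these counts beside the shares of all genes. The plot of log2 ratios shows the members with 10 or more UMIs in the 4 main layers, mononuclear phagocytes and neutrophils.

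Other genes of the pathway, 62 in 6 roles, were listed by function. In granular cells 25 had 10 or more UMIs and 0 were past the limit, beside 2.03% of all genes higher and 0.817% lower. Pnpla1, which makes the acylceramide that Alox12b oxidises, stood at 89.3 and 59.8 CPM there, and all 11 measured genes of that route stayed within the limit. In spinous cells 0 of 40 were higher and 1 lower, beside 0.334% and 0.334%: Gpx3, a secreted glutathione peroxidase that reduces lipid peroxides, at 45.2 and 1.42 CPM. The cytosolic phospholipase Pla2g4a, which frees arachidonate, stood at 41.6 and 33.1 CPM in spinous cells, and Gpx4, which reduces peroxides within membranes, at 50.8 and 59.3 CPM. The cyclooxygenase Ptgs1, the entry to the prostanoid branch, stood at 321 and 287 CPM, and Lta4h, which makes leukotriene B from the Alox5 product, at 31.5 and 30.2 CPM. The sensor first on its list, Gpr31b, had 0 UMIs in both libraries in these layers.

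In upper follicle cells 1 of 35 pathway genes was higher and 0 lower, beside 0.855% and 1.88% of all genes. In basal cells 1 of 43 was higher and 2 lower, beside 0.933% and 3.06%, and in cycling cells 3 of 44 were higher and 1 lower, beside 0.869% and 1.88%. Gpx2, a peroxidase of epithelia, was higher in Card14KI upper follicle cells (18.7 and 49.0 CPM) and lower in basal cells (166 and 7.26 CPM). Ptgs2, the inducible cyclooxygenase, was higher in basal cells (43.9 and 111 CPM). Ggt1, a glutamyl transferase that acts on leukotriene C, had 43 and 0 UMIs in basal and 58 and 0 UMIs in cycling cells. The basal values stand beside the differences in Leiden clusters and outer root sheath marker level given above, whose part in them was not tested. Cycling cells also held more Pla2g16 (7.95 and 26.9 CPM), Abca12 (18.2 and 48.3 CPM) and Ptgs1 (30.8 and 73.9 CPM) in Card14KI, beside their higher spinous marker level. Over all keratinocytes 2 of 50 were past the limit, beside 0.277% of all genes higher and 1.44% lower: Gpx2 (76.7 and 7.32 CPM) and Gpx3 (16.6 and 3.17 CPM), both lower.

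Among leukocytes, 0 of 32 pathway genes in mononuclear phagocytes were past the limit, beside 1.19% of all genes higher and 1.54% lower. In neutrophils 0 of 8 were higher and 1 lower, near the background there of 5.29% and 12.7%. That gene was Ptgs2, at 823 CPM (65 UMIs) in WT and 216 CPM (14 UMIs) in Card14KI. Lymphocytes had 1 of 23, Ptgs2 at 6 and 32 UMIs (4.93 and 65.5 CPM), beside 0.897% of all genes higher. Fibroblasts had Ptgs2 higher (301 and 743 CPM) and the prostaglandin receptor Ptger3 lower (34.8 and 8.02 CPM), 2 of 48 beside 0.349% higher and 1.01% lower, and sebocytes 0 of 34. Lta4h in mononuclear phagocytes stood at 41.9 and 28.5 CPM.

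Few genes near Alox8 could be measured. Of 6 genes in the tables that start within 100 kb of its start, Alox12b, Aloxe3 and Hes7 had 10 or more UMIs in keratinocytes. Hes7, a transcriptional repressor of the Notch pathway, had 13 and 15 UMIs there and 1 and 1 in granular cells, and the values of Alox12b and Aloxe3 are given above. The other 3 stayed below that count.

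The genes most like Alox8 were found by the Pearson correlation of log2(CPM + 10) over 26 sums of cell classes and layers in both libraries, among 13608 genes. Serpinb13, a member of the serpin family of protease inhibitors, came first at r = 0.862, with 8.67 CPM in WT and 43.9 CPM in Card14KI granular cells. The next were Rgn (r = 0.858), Fetub (r = 0.858), Dppa5a (r = 0.854), Gm4316, Gm48704, Srrm4os, Prss27, Tmc3 and Ces2f, the last at r = 0.780. In granular cells Prss27, a membrane serine protease, stood at 50.3 and 188 CPM and Gm48704 at 70.2 and 282 CPM, a direction that follows from how the genes were picked. The correlation rests on the Card14KI granular sum, without which r was 0.523 for Serpinb13 and 0.681 for Dppa5a and between -0.0200 and 0.427 for the other 8. Among the members r with Alox8 was 0.664 for Aloxe3, 0.634 for Alox12b, 0.110 for Alox12 and -0.124 for Alox12e. The sums of a library share its preparation and depth, so these values describe likeness and carry no p-value.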

How the data were processed

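The deposited matrices give the UMI count of each gene in each barcode, without normalization by the authors, for 5016 WT and 3348 Card14KI barcodes (54816411 and 41460580 UMIs). Per the labels' protocols, whole back skin was digested for 73 min, dead cells were removed, and libraries were made with the 10x 3' kit, version 3.1. Cell Ranger 5.0.0 made the counts per the file headers, whereas Cell Ranger 6.0.2 with mm10 is named per the submitters' processing notes. Positions are from GENCODE vM21 of GRCm38, promoters from RefSeq tables of GRCm38.p6, in which 5 of 8 members matched; Aloxe3, Alox15 and Alox5ap did not.

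Barcodes under 500 genes or with 20% or more mitochondrial UMIs were removed (681 and 435). The automatic Scrublet threshold marked 2 and 4 cells, too few to have worked, so the highest scores were removed up to 0.8% per 1000 barcodes (174 and 78 cells). Each cell took the class whose markers had the highest mean scaled log level, with a margin of 0.05 and at least 2 markers detected; keratinocytes were then divided by layer in the same way, and cells with 3 or more cycling markers were called cycling. Of kept cells, 143 and 83 lay within 0.02 of the border. The authors' own cell names were not used here, so names can differ from theirs. The members and gene lists were chosen with earlier results of these data known.

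UMIs were summed per class and library. Levels have exact Poisson, shares exact Clopper-Pearson, ratios exact conditional binomial and differences of shares Newcombe intervals at 95%; bounds of log2 ratios of CPM + 10 combine both Poisson intervals. A count of 0 is read as up to 3. With 1 mouse per group no test was run. Classes under 20 cells in a library were not compared. The genes named are the members, listed pathway genes past a ratio of 2 or first in their role, genes starting within 100 kb of Alox8, and the 10 most like it among genes with 100 or more UMIs. Alternatives covered the cell filter, doublets, the class border, Leiden clusters (scanpy 1.11.5), the pseudocount, scaling, single cells, layer weights, the limits and the thinning depth. The calculations were tested on simulated data (Python 3.11.15, numpy 2.4.6, scipy 1.17.1).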

Additional observations from a re-analysis of the deposited data

Results flagged for a closer look

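Alox8 UMIs were also found outside the cell classes compared above. Card14KI cells without a class held 19.8 CPM of Alox8 (22 UMIs in 2 cells), against 8.32 CPM in WT (18 UMIs in 3 cells). The granular layer was the best match of both Card14KI cells, and the WT UMIs were nearly all in the 2 cells rich in hair keratin-associated genes. Barcodes removed before the analysis held 29.4 CPM in Card14KI (83 UMIs) and 0.807 CPM in WT (3 UMIs). Of the 83, 78 lay in 1 barcode of 47168 UMIs that had been marked as a doublet and whose best match was the granular layer.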

How the results depend on the processing

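No paired analysis was possible because each genotype has 1 mouse and no result comes from a test. No alternative run turned the direction of Alox8 in granular cells or all keratinocytes. The same held for Alox12e in spinous cells, upper follicle cells and all keratinocytes. For Alox12e in basal and cycling cells the only alternatives were leaving out the top cell and the split by Krt79 and Krt17. With such a UMI it stood at 36.0 and 14.9 CPM in basal and 117 and 66.9 CPM in cycling cells. Basal cells without one held 4 and 0 UMIs. Cycling cells without one went the other way, at 10.9 and 50.7 CPM, in 5 WT and 13 Card14KI cells. The Alox8 value of 1.36 in spinous cells became 0.19 when each library's top cell was left out, and 0 in cells with no Krt79 or Krt17 UMI. The 5.50 of Alox8 in granular cells became 8.79 with a pseudocount of 1 CPM, 6.01 as a mean over cells and 6.03 in granular cells with 50 or more Lce1m UMIs per 10000 (this split and that by Krt79 and Krt17 were chosen after seeing the data), and under the other alternatives it stayed within its interval. The share of Alox8-positive granular cells differed by 28.2 points at 2000 UMIs per cell, by 44.1 at 5000 and by 52.8 unthinned. Over all keratinocytes the Alox8 log2 ratio of 2.30 became 2.18 with the stricter filter, 2.38 with doublets kept, 2.19 with no margin, 2.04 with a margin of 2 times, 5.25 with a pseudocount of 1 CPM, 2.97 as a mean over cells and 2.19 without the top cell of each library. Alox12e became -0.99 in upper follicle cells with no margin. In spinous cells its -2.12 became -2.35 with a pseudocount of 1 CPM and -1.72 in cells with no Krt79 or Krt17 UMI, and over all keratinocytes its -1.26 became -1.40, -1.39 and -1.11 with a pseudocount of 1 CPM, as a mean over cells and with TMM factors. Alox12b in granular cells became -0.10 with TMM factors, whose log2 ratio between the libraries was 0.21 in granular cells, -0.17 in keratinocytes, -0.13 in upper follicle cells and -0.17 in neutrophils. The count of members past the limit in upper follicle cells, 1, became 2 with the stricter filter, 3 with a margin of 2 times and 3 at a ratio of 1.5. In spinous cells the Alox12b log2 ratio of 0.37 became 0.18 with doublets kept and 0.05 in cells with no Krt79 or Krt17 UMI. That of Aloxe3, -0.03, became 0.33 as a mean over cells and -0.44 in cells with no Krt79 or Krt17 UMI. The causes were not tested. Neutrophils had 0 cells under the stricter filter and gave no value. Depth limits Alox5, Alox15 and all members outside keratinocytes and leukocytes.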
